A study of Homo sapiens with 12 samples.

Results

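The 10 genes described here act on pre-mRNA splicing and were followed through a time course of insulin stimulation in HepG2 cells, a line from a human hepatocellular carcinoma. They are the SR protein genes SRSF2, SRSF3, SRSF5, SRSF6 and SRSF7, the SR-related genes SRSF11 and RSRP1, the SR-like splicing regulator TRA2A, and the kinase genes CLK1 and CLK4. The 10 genes were taken by name from the 26364 genes counted, with results of these data in view. The set was selected on the fall of RSRP1 at 30 min against 0 min, so the contrast of 30 min with 0 min is described below without a test. The study concerned clusters of the insulin receptor (IR) in insulin-sensitive and insulin-resistant cells. RNA was sequenced after 0, 5, 10, 30 and 240 min of insulin, in 2 replicates per time, and 1 IR ChIP-seq library gave a list of 1971 peaks. The labels of the ChIP-seq library and of its input library also give insulin at 3 nM. Every RNA-seq group, the 0 min group included, carries the same text of treatment in the labels, with EMEM for 16 h and then BSA and insulin at 3 nM for 5 min, and the groups differ by the time in the sample names alone. No genotype or inhibitor separates the groups. None of the later times has a group without insulin, so insulin and elapsed time cannot be told apart.

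SR proteins bind short motifs in exons through an RNA recognition motif and recruit the spliceosome through a tail rich in arginine and serine (the RS domain). SRPK kinases phosphorylate that tail in the cytoplasm before import, and CLK kinases phosphorylate it further in the nucleus and release SR proteins from nuclear speckles. Many genes of this family hold a poison exon, whose inclusion sends the transcript to nonsense-mediated decay, and CLK1 also makes a transcript with a retained intron that stays in the nucleus. A count per gene adds all such transcripts together. In bulk RNA the loss of a cell type and a lower level per cell cannot be told apart.

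The libraries held 18347109 to 45005769 reads on genes, the deepest being replicate 2 of 0 min and the shallowest replicate 2 of 240 min, and all 10 genes were among the 13852 that passed the filter on low counts. Hepatocyte markers were present: all 9 (ALB, AFP, APOA1, APOB, TTR, SERPINA1, TF, FGB and HNF4A) were tested, and their summed level was 66730 to 82740 CPM, counts scaled to library size. Of the 9 markers of blood, endothelial, stromal and muscle cells, 3 did not pass the filter, among them PTPRC at 0 in every library. The summed level of all 9 was 89.9 to 110 CPM. Most of it came from ACTA2, with a mean of 54.7 CPM over the libraries, and CD68, with 40.3 CPM. The study's methods call the RNA-seq samples biologically independent and state that the experiment was done once, and the labels do not say how the replicates were raised. The labels' extraction texts describe DNA for the RNA libraries and Trizol RNA for the ChIP library, whereas the methods give TRIzol and a KAPA stranded RNA kit for RNA-seq and crosslinked chromatin for ChIP-seq.

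The sequences of 4 promoters and 1 peak are shown as a description, and no expression result rests on a motif in them. RSRP1 had the largest decrease and SRSF7 the largest increase. SRSF3 and SRSF7 hold a TATA box close to a start site. CLK4 holds letters that FOXO factors, which insulin signaling inactivates, can bind, and a part of FOXO factors in its values was not tested. SRSF2 was the only gene of the 10 next to an IR peak. RefSeq promoters on GRCh38.p14 cover 250 bases before and 50 bases after a start site, and 8 of the 10 genes matched, with 11 promoters, the others being SRSF2 and TRA2A. Capitals mark a match on either strand to 1 of 4 motifs searched, a FOXO motif, an E-box, a cAMP response element (CRE) and a TATA box, whose letters are given after the sequences, and no matches overlapped. Sequences run 5′ to 3′ on the strand given.

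RSRP1 promoter, chr1:25338205-25338504, minus strand: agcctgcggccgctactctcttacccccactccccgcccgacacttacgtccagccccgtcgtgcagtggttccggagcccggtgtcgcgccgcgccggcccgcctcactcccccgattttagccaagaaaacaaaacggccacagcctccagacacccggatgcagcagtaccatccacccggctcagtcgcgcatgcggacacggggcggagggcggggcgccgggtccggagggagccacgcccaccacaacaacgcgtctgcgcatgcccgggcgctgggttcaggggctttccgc

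SRSF7 promoter, chr2:38751312-38751611, minus strand: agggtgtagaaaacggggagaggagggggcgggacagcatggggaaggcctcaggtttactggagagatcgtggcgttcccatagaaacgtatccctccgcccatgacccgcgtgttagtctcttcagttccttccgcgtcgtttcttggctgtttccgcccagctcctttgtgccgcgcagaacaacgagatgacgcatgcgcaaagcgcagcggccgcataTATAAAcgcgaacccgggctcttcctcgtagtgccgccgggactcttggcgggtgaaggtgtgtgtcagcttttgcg

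SRSF3 promoter, chr6:36594112-36594411, plus strand: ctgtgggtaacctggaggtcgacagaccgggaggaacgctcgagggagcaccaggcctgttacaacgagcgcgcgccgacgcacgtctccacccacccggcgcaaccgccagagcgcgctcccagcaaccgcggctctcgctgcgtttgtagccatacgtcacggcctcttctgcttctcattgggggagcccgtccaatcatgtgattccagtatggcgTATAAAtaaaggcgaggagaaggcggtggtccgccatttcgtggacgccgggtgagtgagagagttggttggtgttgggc

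CLK4 promoter, chr5:178627001-178627300, minus strand: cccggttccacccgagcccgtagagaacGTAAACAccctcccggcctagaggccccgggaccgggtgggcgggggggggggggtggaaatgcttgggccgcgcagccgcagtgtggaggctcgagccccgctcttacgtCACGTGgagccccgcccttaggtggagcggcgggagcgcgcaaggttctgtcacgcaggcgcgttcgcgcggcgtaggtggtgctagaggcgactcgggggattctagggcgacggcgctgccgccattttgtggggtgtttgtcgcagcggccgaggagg

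The TATA box, searched as TATAAA, began 27 bases before the start site in SRSF7 and 30 bases before it in SRSF3, and a reverse match lay 206 bases before one of the 2 starts of SRSF11. TATA boxes were thus in 3 of the 11 promoters, against 11.5% of the 35116 promoters in the table. In CLK4 the FOXO motif, searched as GTAAACA, began 222 bases before the start site, and it was in none of the other promoters of the set and in 3.42% of all promoters. The E-box of CLK4, the letters CACGTG, began 111 bases before the start site, and was likewise alone in the set, against 7.26% of all promoters. The CRE, searched as TGACGTCA and found in 1.85% of all promoters, was in 0 of the 11. The RSRP1 window held no match and was 70% G and C, against a median of 58.7%. In the GRCh37 annotation RSRP1, on the minus strand, ends at 25664704, whereas its hg19 locus given below ends at 25573985. The RSRP1 window was not matched to either 5′ end, so it may belong to a start outside that locus. A match describes letters in a window and is no evidence of binding.

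The IR peak list gave 1 gene of the 10. A peak of 439 bases on chromosome 17 (hg19 74733694 to 74734132) began 201 bases beyond the 5′ end of SRSF2, which lies on the minus strand at 74730197 to 74733493. Its score of 155 ranked 607 of 1971, above the median score of 79. HOMER assigned the peak to MFSD11, which overlaps the 5′ part of SRSF2 on the other strand, so the peak lies at a shared start region and cannot be given to 1 of the 2 genes. Within 5 kb of their bodies, 15.7% of all tested genes had a peak, so 1 of 10 is not above that background. By HOMER's assignment alone none of the 10 had a peak, against 8.58% of tested genes. The 1 library has no replicate, and no test was made. The 300 bases at the middle of the peak, read from GRCh37 (the build called hg19 in the files), held none of the 4 motifs.

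SRSF2 peak, chr17:74733764-74734063, plus strand: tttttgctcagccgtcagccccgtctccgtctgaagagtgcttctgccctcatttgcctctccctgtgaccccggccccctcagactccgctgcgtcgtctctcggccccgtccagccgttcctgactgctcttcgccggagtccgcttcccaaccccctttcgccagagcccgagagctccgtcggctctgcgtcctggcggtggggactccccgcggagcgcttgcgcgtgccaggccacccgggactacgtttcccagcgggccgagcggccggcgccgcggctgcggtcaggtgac

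The unstimulated cells expressed the 10 genes over a range from 17.7 to 406 TPM, a level scaled for transcript length and library size that allows genes to be compared. SRSF5 was highest with a mean of 406 ± 3.46 TPM at 0 min (SD, n = 2 here and below), followed by SRSF6 with 260 ± 5.20 TPM and SRSF2 with 254 ± 5.45 TPM. SRSF11 had 177 ± 9.67 TPM, SRSF3 173 ± 4.45 TPM, TRA2A 97.6 ± 0.221 TPM and SRSF7 92.1 ± 4.38 TPM. CLK1 had 53.8 ± 1.26 TPM, RSRP1 26.7 ± 2.23 TPM and CLK4 17.7 ± 0.814 TPM. The replicates of SRSF6 and SRSF2 overlapped, as did those of SRSF11 and SRSF3, so neither pair could be ordered, and the replicates of the other neighbours did not overlap. At 240 min the highest was SRSF2 with 422 ± 0.752 TPM, followed by SRSF5 with 376 ± 34.7 TPM. RSRP1 had become the lowest with 14.3 ± 1.75 TPM, against 26.6 ± 0.537 TPM for CLK4, and CLK1 with 88.2 ± 5.41 TPM stood above TRA2A with 66.2 ± 9.71 TPM. No neighbours in the order at 240 min had overlapping replicates.

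**Figure D1:**
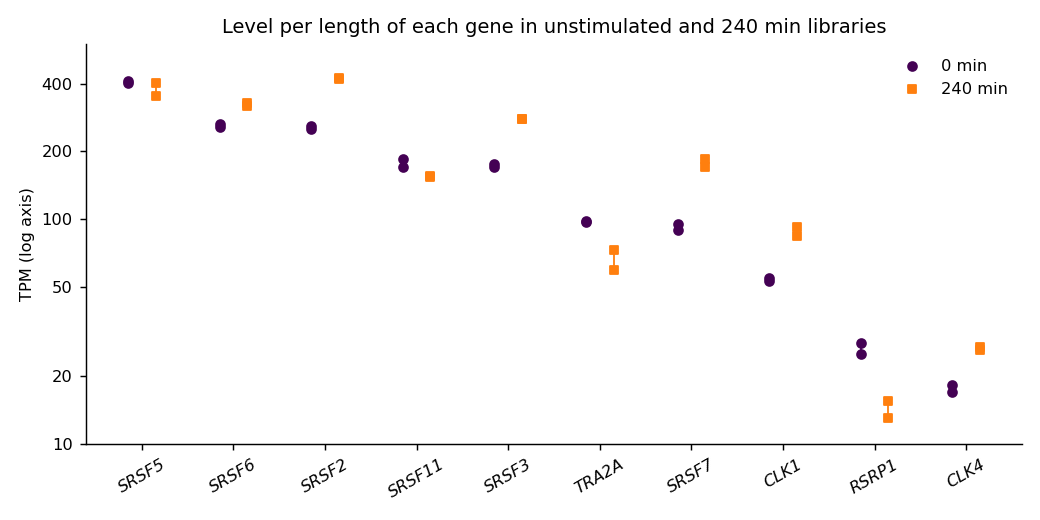
TPM of each gene on a log axis at 0 min (circles) and 240 min (squares), 1 point per library, genes ordered by their mean at 0 min. SRSF2 moved from 254 to 422 TPM and RSRP1 from 26.7 to 14.3 TPM.

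At 240 min of insulin all 10 genes differed from 0 min, and they split by direction: SRSF2, SRSF3, SRSF6, SRSF7, CLK1 and CLK4 rose, and SRSF5, SRSF11, RSRP1 and TRA2A fell. For RSRP1 this comparison shares the libraries of its selection, so its call here is a description. The comparison with the mean of 5 and 10 min shares none of them. The changes ran from a 1.89-fold decrease of RSRP1 to a 1.87-fold rise of SRSF7. The difference of 240 min to 0 min was broad, with 41% of the 13852 tested genes called (20.6% higher and 20.4% lower). The 10 genes were chosen with results of these data known, so their count is a description. The median of the absolute log2 fold change was 0.61 over the 10 genes and 0.20 over all tested genes. The 0 min libraries also served the contrast that chose the set. A comparison of 240 min with the mean of 5 and 10 min uses none of that contrast's libraries. It called all 10 genes in the same directions, where 42.8% of all genes were called (22.4% higher and 20.4% lower). Both comparisons share the libraries of 240 min, so the like directions are no independent result. Expression is given below as CPM after TMM normalization, and the test is the quasi-likelihood test of edgeR, its p-values adjusted by Benjamini-Hochberg over all tested genes. In hg19 the genes lie at chr6:36562090-36572244 (SRSF3, plus strand), chr14:70233829-70238722 (SRSF5, plus strand), chr20:42086504-42092244 (SRSF6, plus strand), chr2:38970741-38978636 (SRSF7, minus strand), chr1:70671365-70717701 (SRSF11, plus strand). The other loci are chr1:25568740-25573985 (RSRP1, minus strand), chr7:23544401-23571660 (TRA2A, minus strand), chr2:201717732-201729467 (CLK1, minus strand) and chr5:178029665-178054054 (CLK4, minus strand). SE denotes the standard error of the log2 fold change.

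**Figure D2:**
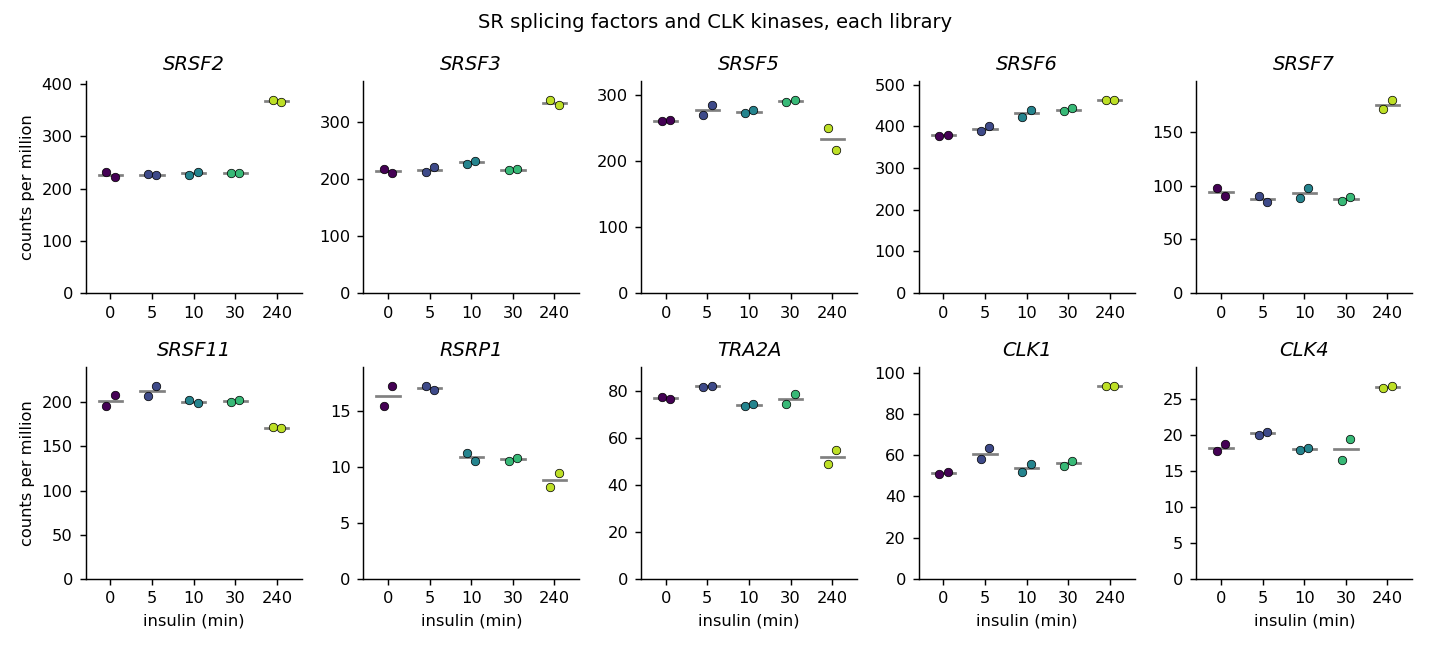
CPM of the 10 genes in each of the 10 libraries by min of insulin, 1 point per library and a grey line at the mean of the 2 replicates. Each axis starts at 0. At 240 min 6 genes were higher and 4 lower, and RSRP1 was already lower at 10 min.

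SRSF7, an SR protein with a zinc knuckle that also acts in mRNA export and polyadenylation, gave the largest rise. It measured 98.0 and 90.2 CPM at 0 min, 90.8 and 85.2 CPM at 5 min, 88.8 and 97.5 CPM at 10 min and 85.6 and 89.8 CPM at 30 min, then 171 and 179 CPM at 240 min. The early libraries overlapped with one another and lay far below both 240 min libraries. SRSF7 rose 1.87-fold from 0 to 240 min (log2 fold change 0.90, SE 0.057, adjusted p = 9.98e-10, edgeR). Against the mean of 5 and 10 min the log2 fold change was 0.95 (SE 0.049, adjusted p = 2.5e-11, edgeR).

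SRSF3, the smallest SR protein, also couples splicing to mRNA export. Its libraries stood at 217 and 211 CPM at 0 min, 212 and 220 CPM at 5 min, 226 and 232 CPM at 10 min and 216 and 218 CPM at 30 min, and at 338 and 330 CPM at 240 min. All 8 earlier libraries lay within 211 to 232 CPM. The rise from 0 to 240 min was 1.56-fold (log2 fold change 0.64, SE 0.046, adjusted p = 4.15e-09, edgeR), and that from the mean of 5 and 10 min was 0.59 on the log2 scale (adjusted p = 8.72e-10, edgeR).

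SRSF2, also known as SC35 and long used to mark nuclear speckles, was nearly flat until 30 min. It gave 231 and 222 CPM at 0 min, 227 and 226 CPM at 5 min, 226 and 233 CPM at 10 min, 231 and 230 CPM at 30 min, and 369 and 366 CPM at 240 min. The replicates at 240 min were close to each other and above all earlier libraries. SRSF2 rose 1.62-fold (log2 fold change 0.70, SE 0.045, adjusted p = 1.24e-09, edgeR). MFSD11 and MIR636 overlap the gene, MFSD11 on the other strand, and SRSF8 is a retrogene copy of SRSF2, so that reads of this pair could be divided by the counting.

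SRSF6, an SR protein that promotes exon inclusion, stood above its 0 min level in all 8 later libraries. It began at 377 and 380 CPM at 0 min, had 388 and 401 CPM at 5 min, 423 and 439 CPM at 10 min and 436 and 443 CPM at 30 min, and reached 462 CPM in both libraries of 240 min. The replicates of each time lay above those of the time before, apart from 10 and 30 min, which overlapped. At 10 min the log2 fold change to 0 min was 0.19 and missed the threshold (SE 0.046, adjusted p = 0.212, edgeR), whereas DESeq2 gave an adjusted p of 0.0196. With scaling to the ERCC spike-ins the sign at 10 min turned to -0.14 (adjusted p = 0.515, edgeR). That value leans on replicate 2 of 10 min, which had the highest spike-in share of all libraries (2.36%). SRSF6 rose 1.22-fold at 240 min (log2 fold change 0.29, SE 0.046, adjusted p = 5.51e-05, edgeR), and still by 0.16 on the log2 scale over the mean of 5 and 10 min (adjusted p = 0.00242, edgeR).

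SRSF5 was the 1 classical SR gene among these that went down at 240 min. It read 260 and 262 CPM at 0 min, 270 and 285 CPM at 5 min, 274 and 277 CPM at 10 min, 289 and 292 CPM at 30 min, and 251 and 216 CPM at 240 min. The 240 min libraries were the lowest of the 10 but the least alike. The fall to 240 min was 1.12-fold (log2 fold change -0.16, SE 0.057, adjusted p = 0.0317, edgeR). Without replicate 2 of 240 min the log2 fold change was -0.06 (adjusted p = 0.444, edgeR), so the fall from 0 min rests on that library. The call was also lost without replicate 1 (adjusted p = 0.082) or replicate 2 (adjusted p = 0.124) of 0 min and with upper-quartile normalization (adjusted p = 0.0735, all by edgeR). Against the mean of 5 and 10 min SRSF5 fell by 0.24 on the log2 scale (SE 0.050, adjusted p = 0.000673, edgeR), and by 0.14 to 0.36 with any 1 library left out (highest adjusted p = 0.0422, edgeR). LOC100289511 overlaps its start on the other strand.

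SRSF11, an SR-related protein found with U2AF in the early spliceosome, gave 195 and 208 CPM at 0 min, 207 and 219 CPM at 5 min, 203 and 199 CPM at 10 min and 201 and 203 CPM at 30 min. At 240 min it was 172 and 171 CPM, below every earlier library. The fall was 1.18-fold (log2 fold change -0.24, SE 0.048, adjusted p = 0.00059, edgeR), and from the mean of 5 and 10 min the log2 fold change was -0.27 (adjusted p = 3.41e-05, edgeR).

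TRA2A, the human counterpart of the fly splicing regulator transformer 2, is close in function to TRA2B, a protein of like sequence. It measured 77.4 and 76.6 CPM at 0 min, 81.8 and 82.2 CPM at 5 min, 73.6 and 74.6 CPM at 10 min, 74.6 and 78.7 CPM at 30 min, and 48.7 and 54.7 CPM at 240 min. Both 240 min libraries were well below the other 8. TRA2A fell 1.49-fold (log2 fold change -0.58, SE 0.057, adjusted p = 2.12e-07, edgeR), and by nearly the same amount from the mean of 5 and 10 min (log2 fold change -0.60, adjusted p = 2.38e-08, edgeR). TRA2B had a mean of 183 CPM at 0 min and 186 CPM at 240 min.

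RSRP1, an arginine and serine rich protein whose function is little known, was lower from 10 min on. It read 15.5 and 17.2 CPM at 0 min and 17.2 and 16.8 CPM at 5 min, then 11.2 and 10.5 CPM at 10 min, 10.6 and 10.8 CPM at 30 min, and 8.16 and 9.41 CPM at 240 min. Both libraries of 5 min lay above those of 10 and 240 min. The gap between 0 and 30 min follows from the selection and is no result. The share of all genes with such an order was not computed. Raw counts ran from 179 to 767 per library. From 5 to 10 min, a step that uses no library of the contrast that chose the set, RSRP1 fell 1.57-fold (log2 fold change -0.65, SE 0.097, adjusted p = 0.00229, edgeR). It was the only one of the 10 called at that step, where 0.26% of all tested genes (36) were called. Each comparison of RSRP1 with 0 min shares the 0 min libraries on which the set was selected, so these values are a description with no p. At 10 min the log2 fold change to 0 min was -0.60 (SE 0.094), and no other gene of the set was called there, where 0.137% of all tested genes (19) passed. At 30 min, the contrast of the selection itself, the mean was 10.7 CPM against 16.3 CPM, a log2 fold change of -0.63. At 240 min the level was 1.89-fold below that of 0 min (log2 fold change -0.92, SE 0.100). From the mean of 5 and 10 min, which is free of those libraries, RSRP1 fell by 0.64 on the log2 scale at 240 min (adjusted p = 1.61e-05, edgeR).

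The size of the 10 min difference to 0 min was -0.66 to -0.51 on the log2 scale with each library left out, and -0.59 to -0.56 in TPM. The step from 5 to 10 min kept its call with each library left out except replicate 2 of 10 min (adjusted p = 0.0817, edgeR), and lost it in TPM (adjusted p = 0.107 to 0.118, limma).

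CLK1, the first described kinase of its family, gave the next largest rise after SRSF7. It gave 50.9 and 51.9 CPM at 0 min, 58.3 and 63.3 CPM at 5 min, 52.0 and 55.7 CPM at 10 min, 55.0 and 57.3 CPM at 30 min, then 93.7 and 93.5 CPM at 240 min. The 240 min replicates were almost equal and stood apart from all others. CLK1 rose 1.82-fold (log2 fold change 0.86, SE 0.055, adjusted p = 1.16e-09, edgeR), and 1.64-fold over the mean of 5 and 10 min (adjusted p = 9.03e-10, edgeR). In TPM, which StringTie estimated from assembled transcripts, the log2 fold change at 240 min was 0.70 (limma).

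The 5 min value of CLK1 was the closest of the set to a call at that time. Both 5 min libraries lay above both 0 min libraries, as they also did for CLK4, SRSF5, SRSF6 and TRA2A. The share of all tested genes with this order was not computed. For CLK1 the log2 fold change was 0.24 (SE 0.057, adjusted p = 0.243, edgeR). At 5 min 0% of the tested genes were called by edgeR, although 1976 genes, CLK1 the only one of the 10 among them, had an unadjusted p under 0.05. DESeq2 called 1 gene and the likelihood ratio test 19, none of them in the set. CLK1 was called where no filter on low counts was used (adjusted p = 0.0352, edgeR), a fit that called 144 of 20553 genes. The sign was not stable between units, since in TPM the log2 fold change was -0.03 (limma). Replicate 2 of 5 min, where CLK1 was highest before 240 min, also had the highest level of the nuclear noncoding RNAs, with 1626 CPM of MALAT1 against 1103 to 1364 CPM in the other libraries up to 30 min, and 335 CPM of KCNQ1OT1 against 200 to 257 CPM. The summed level of these RNAs with NEAT1, 3 of 3 on the list, was 2498 CPM there and 1691 to 2036 CPM in the other 9 libraries. The part of nuclear RNA in the CLK1 value was not tested.

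CLK4, the kinase closest to CLK1 in sequence, was expressed at a lower level per length than CLK1. It gave 17.7 and 18.7 CPM at 0 min, 19.99 and 20.44 CPM at 5 min, 17.9 and 18.2 CPM at 10 min, 16.5 and 19.4 CPM at 30 min, and 26.5 and 26.8 CPM at 240 min. Replicates at 30 min spanned the values of 0 and 10 min, and the 240 min pair lay above all. CLK4 rose 1.46-fold (log2 fold change 0.54, SE 0.080, adjusted p = 2.15e-05, edgeR), and 1.39-fold over the mean of 5 and 10 min (adjusted p = 1.69e-05, edgeR).

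**Figure D3:**
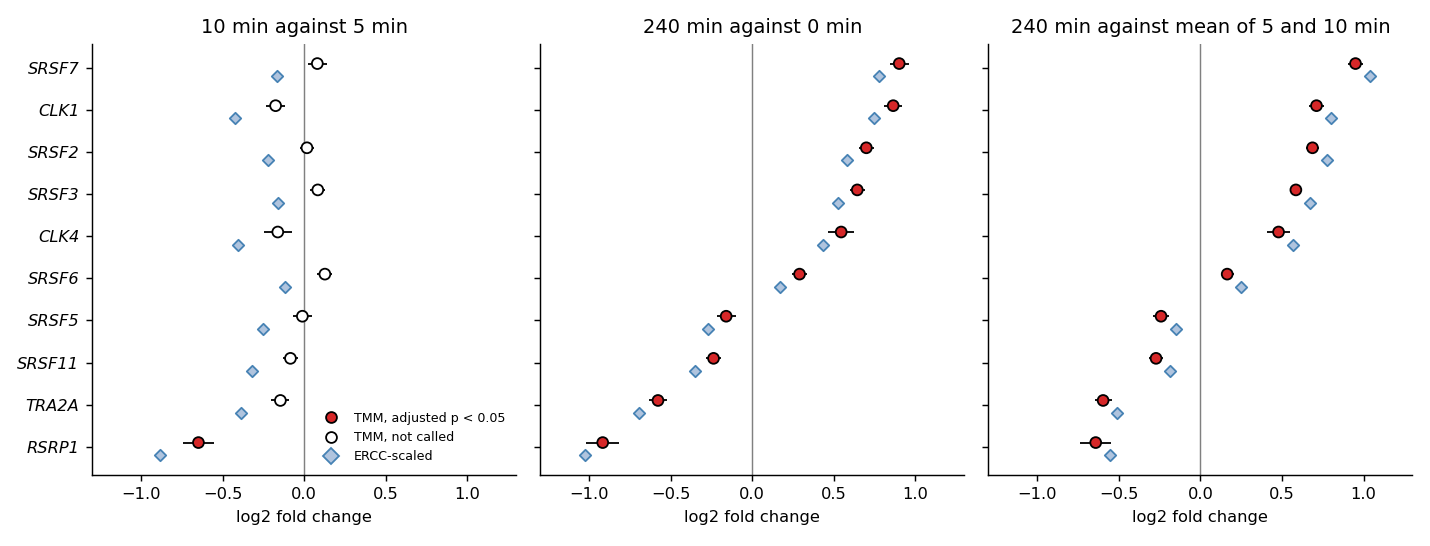
Log2 fold change of the 10 genes for 10 min against 5 min, 240 min against 0 min and 240 min against the mean of 5 and 10 min, with circles and SE bars for TMM normalization (red where adjusted p is under 0.05, edgeR) and diamonds for scaling to ERCC spike-ins. RSRP1 alone is red in the left panel, and all 10 are red in the others. The red mark of RSRP1 in the middle panel is a description, since RSRP1 was selected on the 0 min libraries.

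In the contrast that chose the set, 30 min against 0 min, only RSRP1 and SRSF6 differed from 0 by more than 0.2 on the log2 scale. SRSF6 had a mean of 440 CPM against 378 CPM, a log2 fold change of 0.22, and the next in size were SRSF5 with 0.15 and CLK1 with 0.12. The lowest after RSRP1 was SRSF7 with -0.10, then CLK4 with -0.03. Over all tested genes 0.332% were called in this contrast, and nothing is read from the set's values against it.

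Scaling to the ERCC spike-ins, RNAs added in a known amount, moved the median of all genes by -0.33 at 10 min and by -0.12 at 240 min on the log2 scale, both against 0 min. All 10 genes kept their sign at 240 min under it. At 240 min against 0 min it called 7.65% of the tested genes (331 higher and 728 lower, where TMM gave 2847 higher and 2829 lower), and 5 of the 10: SRSF7 (log2 fold change 0.78, adjusted p = 0.00174), CLK1 (0.75, adjusted p = 0.00303), SRSF2 (0.58, adjusted p = 0.0332), TRA2A (-0.70, adjusted p = 0.00689), all by edgeR, and RSRP1 (-1.02, given without a p since it was selected on the 0 min libraries). SRSF3 with 0.53 (adjusted p = 0.0617), CLK4 with 0.43 (adjusted p = 0.176), SRSF11 with -0.35, SRSF5 with -0.27 and SRSF6 with 0.17 were not called. Against the mean of 5 and 10 min it called 12.4% of the tested genes (1324 higher and 400 lower). RSRP1 kept its call from 5 to 10 min under this scaling (-0.89, adjusted p = 0.0393, edgeR), where the median of all genes was -0.24. The spike-in share was 2.36% in replicate 2 of 10 min, 1.73% in replicate 1 of 10 min and 1.59% in both 0 min libraries. Values of 10 min under this scaling therefore lean on replicate 2.

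Across the 10 libraries the genes that rose and fell at 240 min ran in opposite directions. Pearson's r of log2 CPM with SRSF2 was 0.99 for SRSF3 and SRSF7, 0.96 for CLK1 and 0.92 for CLK4, and -0.97 for TRA2A and -0.94 for SRSF11. For SRSF6 it was 0.67 and for RSRP1 -0.68. RSRP1 was most unlike SRSF6, with r = -0.95. These values describe 10 libraries of 5 times, and the genes share library, depth and the step at 240 min. Among 10378 tested genes that averaged 5 CPM or more, the 5 with the pattern most like that of RSRP1 over the 10 libraries were YEATS2 (r = 0.99), DUSP16 (0.98), TOB2 (0.97), RAPGEF5 (0.95) and FILIP1L (0.95). DUSP16, a phosphatase of MAP kinases, had 219 to 225 CPM at 0 and 5 min and 189 to 202 CPM from 10 min on, a much smaller relative step than that of RSRP1.

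The rest of the splicing machinery at 240 min is described here against 20.6% of all genes higher and 20.4% lower. Of the 7 other SR protein genes tested, 2 rose and 2 fell. SRSF12, a low-level relative of SRSF10, had 5.61 and 5.16 CPM at 0 min and 8.52 and 7.89 CPM at 240 min, up by 0.62 on the log2 scale (adjusted p = 0.000704, edgeR), SRSF4 changed by -0.28 (adjusted p = 0.000281, edgeR) and SRSF10 by -0.28 (adjusted p = 0.000284, edgeR). Of the 8 other genes for SR protein kinases and the importer of SR proteins that were tested, 4 rose and 0 fell by edgeR's adjusted p, with 5 at an unadjusted p under 0.05. The 4 that rose were SRPK2 (log2 fold change 0.30), SRPK1 (0.17), DYRK1B (0.92, at only 1.47 CPM at 240 min) and DYRK1A (0.16, named after its value was seen). SRPK2 went from 43.0 and 40.4 to 50.1 and 52.4 CPM. The other CLK genes were not called: mean CPM at 0 and 240 min was 22.9 and 22.85 for CLK2, and 21.0 and 18.2 for CLK3.

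Among 19 SR-related and nuclear speckle genes 4 rose and 7 fell. LUC7L, a human relative of a yeast U1 snRNP protein, went from 34.1 and 34.0 to 23.9 and 25.9 CPM (log2 fold change -0.46, adjusted p = 3.32e-05, edgeR). ACIN1, a component of the exon junction complex, changed by -0.38 (adjusted p = 2.44e-06, edgeR) and PNN, a nuclear speckle protein, by 0.38 (adjusted p = 2.91e-05, edgeR). The hnRNP genes, whose products often oppose SR proteins at exons, leaned to one side, with 11 of 17 higher and 1 lower. HNRNPAB rose from 146 and 138 to 233 and 204 CPM (log2 fold change 0.63, adjusted p = 9.79e-08, edgeR), HNRNPDL by 0.59 (adjusted p = 6.66e-07, edgeR) and HNRNPD by 0.40 (adjusted p = 2.04e-05, edgeR). Of 22 core spliceosome genes 5 rose and 1 fell, with a median log2 fold change near 0 and SNRPD1, a protein of the Sm ring, the most changed at 0.35 (adjusted p = 0.000132, edgeR). The median log2 fold change was 0.17 for the hnRNP genes and 0.029 for the other SR protein genes.

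**Figure D4:**
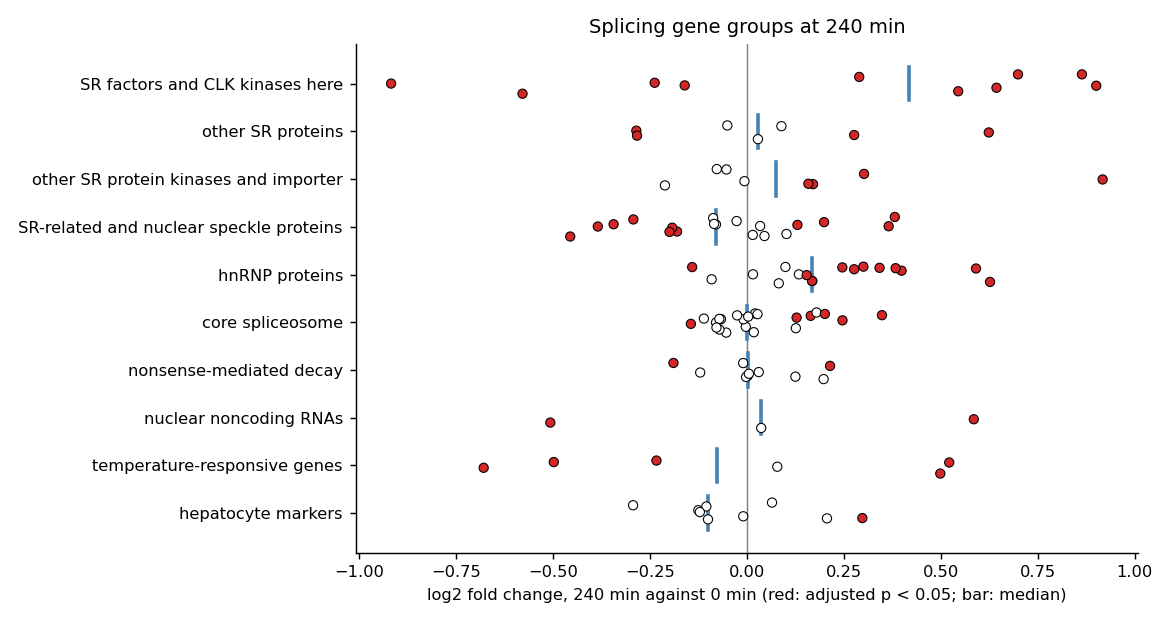
Log2 fold change at 240 min against 0 min of each tested gene in 10 gene groups, red where adjusted p is under 0.05 (edgeR), with a bar at the median of each group. The 10 genes described here span -0.92 to 0.90, and the core spliceosome genes -0.14 to 0.35.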

How the data were processed

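RNA-seq of HepG2 cells at 5 times of insulin, 2 libraries each, and 1 IR ChIP-seq peak list were analysed. The authors trimmed reads with Trim Galore 0.6.4, aligned them to hg19 with STAR 2.6.1d, marked duplicates and deposited raw counts per gene from featureCounts 1.6.4. The authors also deposited TPM from StringTie, and the peak score of each MACS2 peak with HOMER's annotation, after alignment with BWA.

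Counts were fitted here with edgeR 4.0.16 in R 4.3.3 (filterByExpr, TMM, quasi-likelihood test, 10 libraries in 1 model without a replicate block). The 92 ERCC spike-in rows, which name no gene, 1.59% to 2.36% of counts, stayed out of library sizes. An adjusted p under 0.05 over 13852 genes was a call. CPM and log2 fold changes are relative to TMM library sizes. TPM was tested with limma 3.58.1 on log2(TPM + 1). Depth bounds the lowest gene, RSRP1, at 179 counts in the shallowest library. On simulated counts with 200 genes changed at 240 min alone, 83.5% of these were called at 240 min against 0 min, and 0 genes were called in the comparisons of the earlier times, where none was changed.

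A gene had a peak when one overlapped its body extended by 5 kb. Named genes are the 10 members, up to 3 called genes per further list with the largest change at 240 min, and the 5 genes most correlated with RSRP1. CLK2, CLK3 and TRA2B were named as relatives of members. Members and lists were chosen with earlier results of these data known. Alternatives were DESeq2 1.42.0, the likelihood ratio test, other filters and normalizations, ERCC scaling, only the times compared, a replicate block, TPM and each library left out. Whether replicate numbers pair the libraries was not settled. Correlations of deviations between times ran from -0.35 to 0.32, and 5 of 10 pairs of times were over 0.1.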

Additional observations from a re-analysis of the deposited data

Results flagged for a closer look

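Of the effects that differ between times by a test of the difference itself, all 10 genes gave a log2 fold change at 240 min that differed from that at 5 and 10 min, tested as 240 min against the mean of 5 and 10 min with edgeR, a comparison that called 42.8% of all tested genes. The differences were 0.95 for SRSF7, 0.71 for CLK1, 0.69 for SRSF2, 0.59 for SRSF3, 0.48 for CLK4 and 0.16 for SRSF6, and -0.24 for SRSF5, -0.27 for SRSF11, -0.60 for TRA2A and -0.64 for RSRP1. With ERCC scaling, which called 12.4% of all tested genes, those of SRSF5, SRSF6 and SRSF11 were not called. RSRP1 was also flagged for its step from 5 to 10 min, with -0.65. Groups of 2 libraries were too small for a test of single outlying libraries.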

How the results depend on the processing

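Of 528 recomputed log2 fold changes (24 results under 22 alternatives), 495 kept their direction and side of the threshold, 26 lost the call, 3 gained one and 4 turned sign. At 240 min against 0 min 10 genes were called, 5 with ERCC scaling and 9 to 10 with 1 library left out, and against the mean of 5 and 10 min 10 with each library left out. Over all tested genes the 240 min counts against 0 min were 5676, 1059 with ERCC scaling and 3893 to 5785 with 1 library left out. At 10 min against 0 min 1 gene was called, 2 with DESeq2 and 2 without a filter (RSRP1 and SRSF6), 0 with limma on TPM in all 3 forms, and 0 to 1 with 1 library left out. From 5 to 10 min the count was 1, with 0 on TPM in all 3 forms and 0 to 1 with 1 library left out. At 5 min it was 0, and 1 without a filter. Over all genes, the fit without a filter called 144 of 20553 at 5 min and 74 at 10 min, both against 0 min. DESeq2 called 26 of 13852 at 10 min against 0 min. RSRP1 was selected on the 0 min libraries, so its calls against 0 min in these counts are a description. The reversed values were CLK1 at 5 min, with -0.03 on TPM in all 3 forms (-0.0302, -0.0308 and -0.0302), and SRSF6 at 10 min, with -0.14 under ERCC scaling. The members with an IR peak were 1 within 5 kb, 1 kb or 20 kb and with scores above the median, and 0 by HOMER's nearest gene. With a replicate block 10, 10, 1, 1 and 0 genes were called at 240 min against 0 min, against the mean of 5 and 10 min, at 10 min against 0 min, from 5 to 10 min and at 5 min, as without it, and RSRP1 changed by -0.59 at 10 min. A pairing of the libraries by replicate number was not settled. ERCC scaling rests on 1.59% to 2.36% of the counts, with the highest share in replicate 2 of 10 min. The cause of these changes was not tested. Depth limits RSRP1 and CLK4 most, the genes with the fewest counts.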

Other observations

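Of 6 tested genes of the response to temperature, a condition under which CLK1 and CLK4 activity is known to change, 2 rose and 3 fell at 240 min against 0 min and 1 was not called, where 20.6% of all tested genes were higher and 20.4% lower. RBM3, a cold-inducible RNA-binding protein, rose from 173 and 172 CPM at 0 min to 246 and 249 CPM at 240 min, up by 0.52 on the log2 scale (adjusted p = 5.91e-08, edgeR), and CIRBP, of the same kind, from 158 and 158 CPM to 227 and 220 CPM (0.50, adjusted p = 1.58e-07, edgeR). HSPA1A, a heat-inducible chaperone, fell from 36.3 and 39.2 CPM to 21.9 and 25.8 CPM (-0.68, adjusted p = 8.58e-07, edgeR). The part of temperature in the values of CLK1 and CLK4 was not tested.

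Of the 3 nuclear noncoding RNAs, KCNQ1OT1 rose by 0.59 on the log2 scale at 240 min against 0 min (adjusted p = 1.96e-05, edgeR) and NEAT1, the RNA of paraspeckles, fell by 0.51 on the log2 scale (adjusted p = 0.000644, edgeR). Of the 9 hepatocyte markers, HNF4A rose by 0.30 on the log2 scale (adjusted p = 0.000101, edgeR) and 8 were not called. The median log2 fold change of these markers was -0.10, with 3 higher and 6 lower. Of the 6 tested markers of other cells, ACTA2 fell by 0.30 on the log2 scale (adjusted p = 0.00215, edgeR) and 5 were not called. Over all tested genes 20.6% were called higher and 20.4% lower.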
